A study of Homo sapiens with 4 samples.

Results

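Replication-dependent histone genes encode the bulk histones that package newly copied DNA. They were taken here as the protein-coding genes named H1-1 to H1-6, H2AC, H2BC, H3C or H4C followed by a number, which gave 59 of the 16174 genes listed. The 59 comprise 6 genes for the linker histone H1, 14 for H2A, 17 for H2B, 10 for H3 and 12 for H4. On GRCh38, 51 lie on chromosome 6, 7 on chromosome 1 and 1 on chromosome 12. The study asked what repression of the long non-coding RNA gene SNHG26 does in H9, a cell line derived from human embryonic stem cells in the primed state. In the SNHG26 arm the cells carried a doxycycline-inducible dCas9-BFP-KRAB, a nuclease-dead Cas9 joined to a repressor domain, and 4 pooled guides against SNHG26. In the control arm they carried the same repressor and non-targeting control guides. Both arms were transfected pools selected for 6 days in 500 ng/mL puromycin, and no clone is mentioned. Both received 1 µg/mL doxycycline and were harvested after 2 or 3 days, so no library lacks the repressor or the drug. There was 1 library per arm and day, and each arm's mean has n = 2 with a spread that includes any effect of the day.

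Core histones H2A, H2B, H3 and H4 form the protein spool of the nucleosome, and H1 binds the DNA that enters and leaves it. Their genes are transcribed in S phase, mostly lack introns, and sit in clusters where H2A and H2B genes often face away from each other across a shared promoter. Their mRNAs are known for ending in a conserved stem-loop in place of a poly(A) tail. The stem-loop is bound by SLBP and cut by a complex that contains the U7 snRNP. These libraries were made from 50 ng of total RNA with an oligo-dT primer, strand switching and 14 cycles of PCR, and were read on a nanopore sequencer. How cDNA was primed on RNAs that end in a stem-loop cannot be read from a table of TPM, a unit in which each read is weighted by the inverse of a gene length.

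The stem-loop was searched in the GENCODE release 29 transcripts of all 59 genes as a stem of 6 bases that starts with GG, a loop of 4 bases that starts with TT, and the reverse complement of the stem. It was found in 1-exon transcripts of 23 genes and in 4 spellings. One example of each is given with 5 bases on either side, because in these examples the span on which most reads were counted ends just past it. Capitals mark stem, loop and stem, and the letters are DNA, 5′ to 3′.
H2BC18: ccaaaGGCTCTTTTCAGAGCCacttc
H4C5: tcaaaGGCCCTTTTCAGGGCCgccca
H2BC5: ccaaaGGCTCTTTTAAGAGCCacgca
H4C9: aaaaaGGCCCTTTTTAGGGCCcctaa
The H2BC18 stem-loop lies at chr1:149811885-149811900 on the minus strand. Those of H4C5, H2BC5 and H4C9 lie on the plus strand at chr6:26205001-26205016, chr6:26158587-26158602 and chr6:27139654-27139669. The spelling of H2BC18 was shared by 12 genes (H2A, H2B and H3), that of H4C5 by 5 genes (H4), that of H2BC5 by 4 genes (H2B and H3) and that of H4C9 by 2 genes (H4). All 7 of the 12 H4 genes in which it was found had one of the spellings with GGCCC, and no gene of another class did. Some release 29 models are shorter than the RefSeq span, as in H2AC17 (393 against 487 bases) and H4C4 (312 against 403 bases). A stem-loop past the end of a model could not be found. A gene without a match, such as H4C3, H2AC17 or H1-3, is not shown to lack it.

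The deposited TPM divide reads by the genomic span of the transcript model they were counted on, so a level can be turned back into reads. One read on a span of 500 bases was worth 14.6 TPM (SNHG26 guides, day 2), 13.1 TPM (SNHG26 guides, day 3), 16.1 TPM (control guides, day 2) and 13.4 TPM (control guides, day 3). Short histone genes therefore reach high TPM with few reads, and levels of genes are compared below only as TPM. Of the 23 genes with a stem-loop in a 1-exon transcript, 17 had a shortest span with reads that ended 0 to 20 bases past it. Within that window, which bounds the range, the distance was 3 to 18 bases. In H2BC15, H2BC21 and H4C2 the shortest span with reads ended 13099, 1729 and 1099 bases past it. Laid from the listed gene start, the shortest spans of H4C8 and H2BC6 ended before it. H4C14 had no reads. Of 9111 histone reads, 202 (2.22%) were counted on a longer form, defined as over 100 bases longer than the shortest span of the gene or at least 1000 bases long. The share was 1.46% in H1, 4.10% in H2A, 10.2% in H2B, 2.54% in H3 and 0.315% in H4. These shares depend on which spans the transcript models hold. H4C3, with 4085 of the 4443 H4 reads, was counted on its listed span of 405 bases alone. None of its reads could count as longer. A span belongs to the transcript model counted and not to the read, whose 3′ end is not recorded in the table.

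Long forms came from few genes. H2BC12 had 34 reads on a span of 9558 bases and 31 on one of 495 bases. Its longer form took 12, 6, 14 and 2 reads and its shorter form 7, 10, 4 and 10 reads, in the order SNHG26 guides day 2 and day 3, then control guides day 2 and day 3, which is kept for all values below. H2AC6 had 23 reads on spans of 14882 or 14972 bases and 19 on 519 bases. H2AC25 had 51 reads on 895 bases and 248 on 510 bases. H1-2 had 21 on 1711 bases and 383 on 731 bases, and H2BC5 had 12 on 13204 bases and 41 on 486 bases. H2BC12, H2AC6, H2BC5 and H1-2 are known from other work to give polyadenylated mRNAs as well as stem-loop mRNAs. H2BC21, also known for this, had all of its 10 reads on 2224 bases, as H2BC15 had all of its 8 on 13660 bases. The spans of H2BC21 in the sources used were 2224 and 2194 bases, so none of its reads could count as shorter. By library the longer share of all histone reads was 2.34%, 2.64%, 2.33% and 1.56%, lowest in the control library of day 3.

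**Figure D1:**
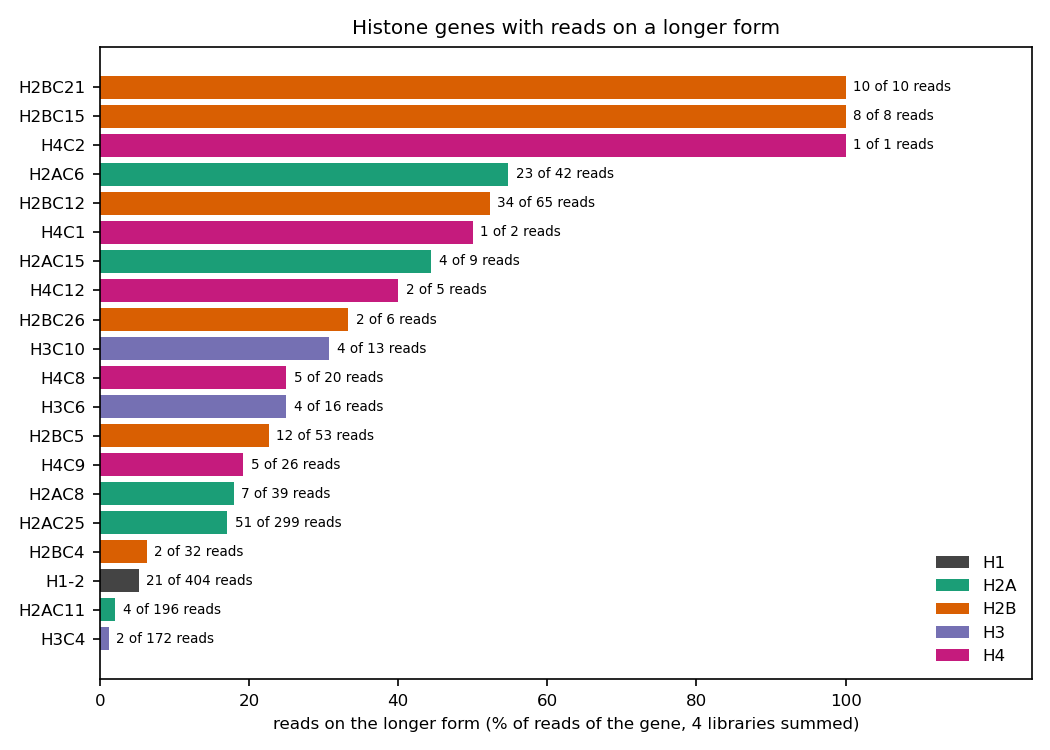
Share of each gene's reads counted on a longer transcript form (x axis, percent, 4 libraries summed) for the 20 histone genes with any such read (y axis), coloured by histone class, with the reads written beside each bar. H2BC21, H2BC15 and H4C2 had only longer-form reads, while H1-2 had 21 of 404. Every span used for H2BC21 counts as a longer form.

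Histone genes took 3.78%, 3.43%, 3.72% and 3.34% of the listed TPM, which is a share of TPM and not of reads. Values above 0 were listed in all 4 libraries for 41 of the 59 genes and in 1 to 3 libraries for 17, and H4C14 was listed at 0 throughout. The median over all 59 was 88.2, 64.0, 80.4 and 65.7 TPM. H4 was the largest class by summed TPM (21865, 19561, 20104 and 16461) and H3 the smallest (1442, 1182, 1554 and 1307). H2A (7807, 6642, 8319 and 7998) lay above H1 (2641, 3338, 3070 and 4024) and H2B (2402, 1971, 2628 and 2129) in every library. The proteins of paralogous histone genes are identical or nearly so, and how reads that match several copies were assigned is not given in the sources used here, so values of single genes within H2A, H2B, H3 and H4 are uncertain to that extent.

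**Figure D2:**
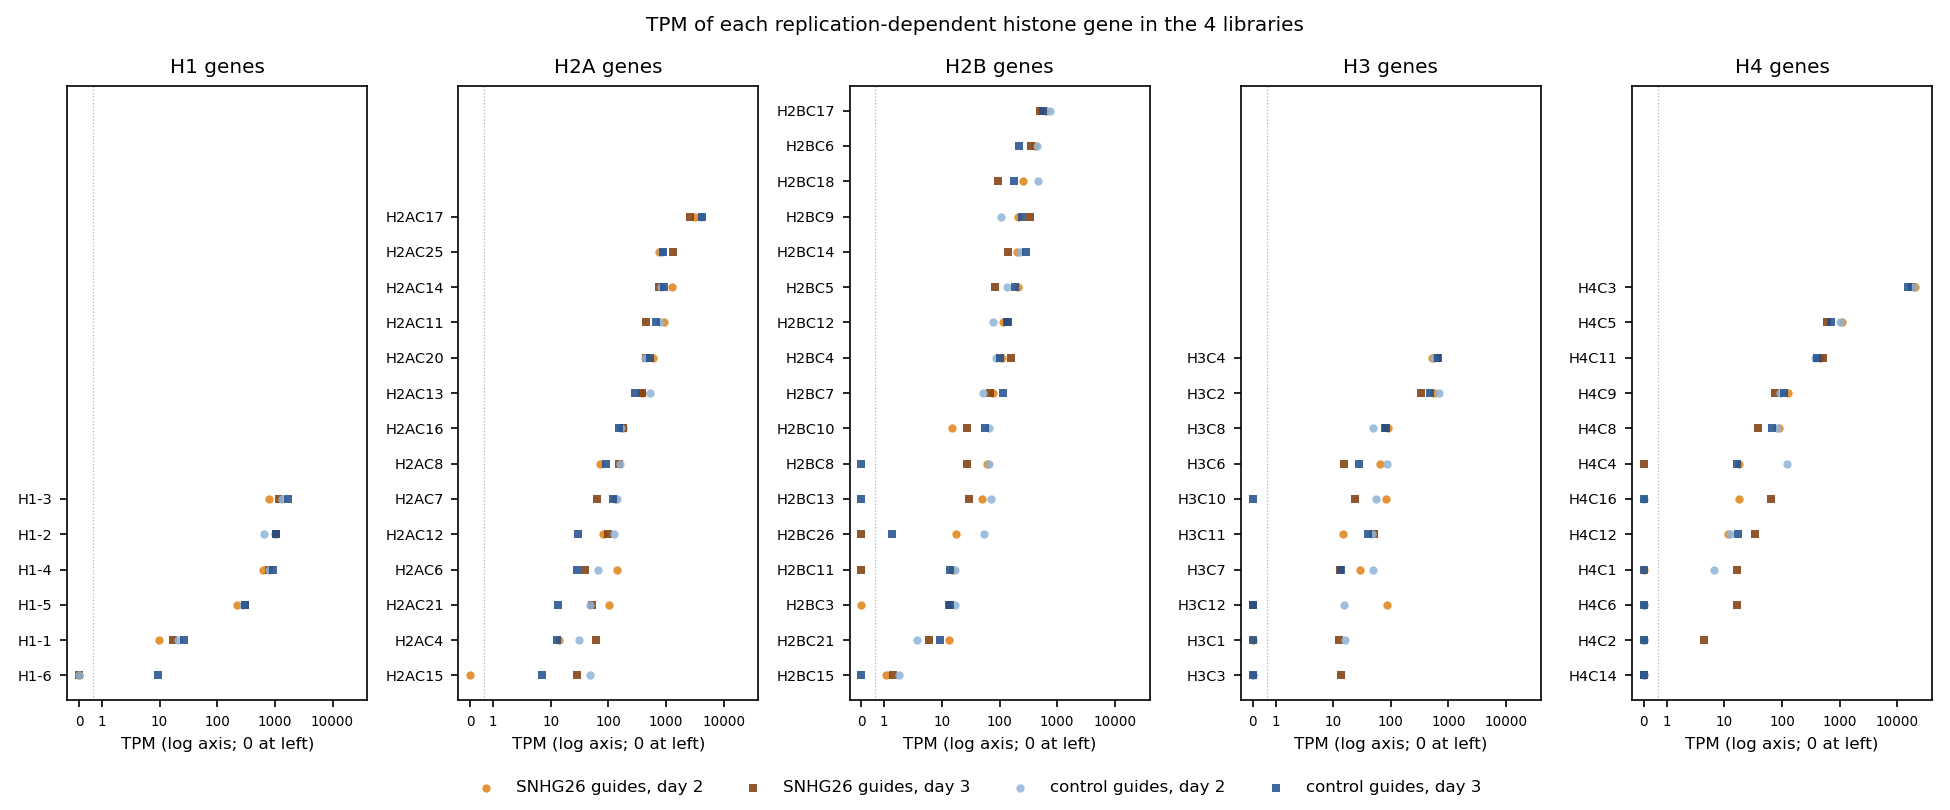
TPM (x axis, log scale, with 0 drawn at the left of the dotted line) of each of the 59 histone genes (y axis, ordered by mean within class) in the 4 libraries, 1 point per library. H4C3 stands alone at the right of its panel in every library, and no gene whose mean exceeds 50 TPM has a point at 0.

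H4C3 (chromosome 6, 26103933 to 26104337, plus strand) was the highest histone gene in every library, at 20053, 18207, 18426 and 15140 TPM. It rested on 1114, 1129, 929 and 913 reads. It ranked 6, 7, 6 and 7 by TPM among all listed genes and held from 47.4% to 55.7% of the histone TPM. That rank depends on its short span and is not a rank by reads. Each read was worth 13.1 to 16.1 TPM on 500 bases but 0.653 to 0.803 TPM on 10 kb. All other H4 genes together held 1812, 1353, 1678 and 1320 TPM, so H4C3 was 11.1, 13.5, 10.98 and 11.5 times their sum. The next H4 genes were H4C5 with 1097, 602, 994 and 717 TPM (62, 38, 51 and 44 reads) and H4C11 with 450, 504, 372 and 397 TPM (24, 30, 18 and 23 reads). H4C9 followed with 128, 75.4, 92.8 and 106 TPM (7, 6, 6 and 7 reads). These 4 did not overlap in level, except that H4C9 overlapped the next gene, H4C8. The remaining H4 genes had at most 6 reads in a library. Nearly all human H4 genes encode the same protein, so these values describe which copy carried the reads and not different histones.

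H2AC17 (chromosome 6, 27892699 to 27893185, minus strand) led the H2A genes with 3159, 2642, 4091 and 4261 TPM from 211, 197, 248 and 309 reads. No other H2A gene reached its range, and its mean was 3.71 times that of the next, H2AC25. H2AC25 (763, 1299, 859 and 891 TPM; 59, 110, 58 and 72 reads) and H2AC14 (1271, 755, 827 and 917 TPM; 83, 55, 49 and 65 reads) overlapped, in changing order. H2AC11 had 920, 440, 782 and 673 TPM from 63, 34, 48 and 51 reads, and it overlapped H2AC14 as well. From H2AC11 down, neighbours in the order overlapped except H2AC13 and H2AC16, whose means differed 2.34 times.

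The H2B genes were lower and more even. H2BC17 (chromosome 6, 27893425 to 27893891, plus strand) was highest with 640, 503, 757 and 575 TPM (41, 36, 44 and 40 reads), above H2BC6 in every library. H2BC6 had 419, 347, 444 and 214 TPM (27, 25, 26 and 15 reads). H2BC18 had 252, 92.9, 457 and 177 TPM, and H2BC9 had 205, 339, 104 and 247 TPM (13, 24, 6 and 17 reads), with ranges that overlap those of H2BC6. The H2BC18 values were whole reads, 17, 7, 28 and 13, on a span of 492 bases that ends 3 bases past the stem-loop printed above, although the table lists the gene over 29685 bases (chromosome 1, 149782689 to 149812373, minus strand).

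In H3, H3C4 (522, 639, 559 and 671 TPM; 36, 50, 35 and 51 reads) and H3C2 (556, 332, 676 and 473 TPM; 39, 26, 43 and 36 reads) took most of the class, in an order that changed with the day. H3C4 was the higher of the pair on day 3 and H3C2 on day 2, in both arms. H3C8 had 88.2, 79.0, 48.6 and 81.2 TPM and H3C6 65.0, 15.5, 85.8 and 27.9 TPM, each from 2 to 6 reads per library. The other H3 genes had at most 6 reads in a library.

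H1 had 4 genes with more than 20 reads per library. H1-3 (chromosome 6, 26234212 to 26234987, minus strand), which encodes the linker histone H1.3, had 789, 1170, 1346 and 1714 TPM from 84, 139, 130 and 198 reads. H1-2 had 993, 1059, 645 and 1058 TPM (103, 122, 61 and 118 reads) and H1-4 had 630, 788, 776 and 913 TPM (68, 95, 76 and 107 reads). The ranges of these 3 overlapped, and H1-5 lay below all of them with 220, 303, 282 and 303 TPM (24, 37, 28 and 36 reads). H1-1 had from 9.64 to 26.7 TPM. H1-6, the testis H1, was listed above 0 only in the control library of day 3, at 9.28 TPM from 1 read.

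Neighbouring H2A and H2B genes transcribed away from each other shared a start region but, in 7 of 11 pairs, not a level. In 11 head-to-head pairs an H2A and an H2B gene began 169 to 250 bases apart (median 235). The H2A gene was the higher of the pair in all 4 libraries in 7 pairs, the order changed between libraries in 4, and the H2B gene was the higher in all 4 in none. The mean of H2AC17 was 5.72 times that of H2BC17, 239 bases away. The ratio was 61.3 for H2AC11 over H2BC11 and 63.0 for H2AC20 over H2BC21, whose H2B genes had at most 1 and 4 reads in a library. Unequal spans make part of such ratios. H2AC20 had 139 reads on 494 bases and H2BC21 10 reads on 2224 bases. H2AC15 had a mean 19.7 times that of H2BC15 in TPM, with 9 reads against 8, all of the latter on 13660 bases. Whether counting used strand is not given in the sources used here.

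**Figure D3:**
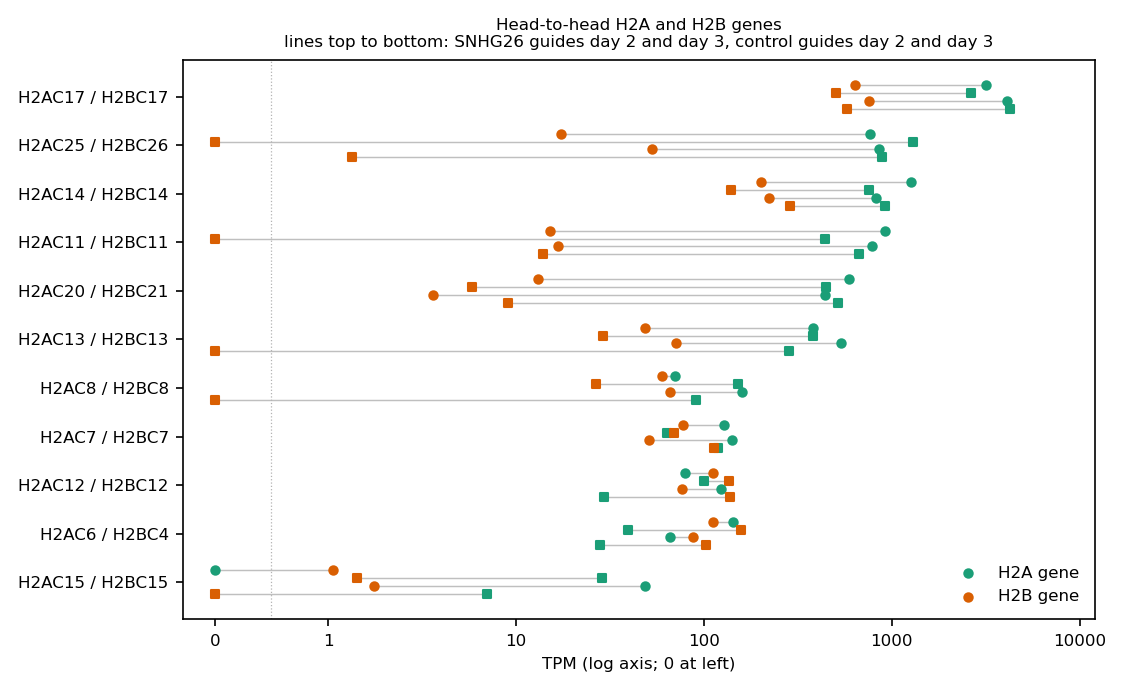
TPM (x axis, log scale, with 0 at the left of the dotted line) of the H2A and the H2B gene of each of the 11 head-to-head pairs (y axis), 1 line per library. In 7 pairs, among them H2AC17 and H2BC17, every H2A point lies right of its H2B point.

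Start regions were read from RefSeq windows (250 bases before to 50 after the start, GRCh38.p14), in which 54 members had an entry. On either strand, the octamer ATTTGCAT, bound by Oct factors, was in 10 of 13 H2A, 13 of 17 H2B, 0 of 6 H1, 1 of 8 H3 and 0 of 10 H4 windows, against 1.77% of all 35116 windows. The H3 window with the octamer is that of H3C4, whose entry is the same stretch as that of H2AC7. Windows of head-to-head genes overlap, so 1 match can count for both genes, as the octamer does in H2AC17 and H2BC17. The H2A and H2B counts are therefore not independent. The H1 box (AAACACA) was in 6 of 6 H1 and 1 of 13 H2A windows and in none of the other classes, against 5.64% of all. The CCAAT box was in all H1, H2A, H2B and H3 windows and in 2 of 10 H4 windows (34.6% of all). The TATA box (TATAAA) was in 33 of 54 windows (11.5% of all). The 250 bases before H2AC17 (chr6:27893186-27893435, minus strand, GRCh38.p14) and before H1-3 (chr6:26234988-26235237, minus strand) are shown because these genes led their classes. The first spans the gap to H2BC17. Capitals mark the letters of these motifs on either strand.
H2AC17: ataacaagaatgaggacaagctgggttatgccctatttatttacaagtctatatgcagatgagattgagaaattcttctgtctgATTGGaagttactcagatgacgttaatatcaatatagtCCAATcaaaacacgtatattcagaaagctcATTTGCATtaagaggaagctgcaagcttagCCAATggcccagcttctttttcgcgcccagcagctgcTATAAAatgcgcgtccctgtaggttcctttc
H1-3: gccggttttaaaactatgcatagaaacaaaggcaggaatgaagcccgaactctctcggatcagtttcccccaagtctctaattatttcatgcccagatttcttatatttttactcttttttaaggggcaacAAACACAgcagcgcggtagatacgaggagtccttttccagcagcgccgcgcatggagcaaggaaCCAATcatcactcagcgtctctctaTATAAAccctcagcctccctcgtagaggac
A match says only that the letters are in the window.

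The libraries as a whole were shallow, with at most 947338 to 1220265 reads each when all reads are placed on the full gene span. SNHG26 was listed at 0, 0.933, 2.98 and 4.03 TPM, a change of -1.69 (SE 0.58) on log2(TPM + 1) with a limma adjusted p of 0.935. Of 14 markers of pluripotent cells 12 were tested, with a sum of 1786 to 2040 TPM. Markers of mesendoderm (at most 1.98 TPM summed), amnion and trophectoderm (at most 1.29 TPM) were at or near 0, and no neuroectoderm marker was listed. Of 6 fibroblast markers 3 were listed, with a sum of 8.12 to 12.1 TPM, nearly all from COL1A1 and COL1A2. A listed 0 need not mean absence, since UPF1, which every cell uses, was also listed at 0 in all 4 libraries.

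No histone gene passed the test between the guides. Levels on log2(TPM + 1) were compared with limma over the 8274 genes whose mean level reached 1 TPM, 58 histone genes among them. The number past an adjusted p of 0.05 was 0 of 58, and 0 of all genes (0%). At an unadjusted p under 0.05 there were 3 histone genes (5.17%), H4C16, H2BC10 and H2AC17, against 4.07% of all genes. The median change was -0.02 over the histone genes and 0.04 over all genes tested. Its sign depended on the library: the histone median was -0.29 without the control library of day 3, 0.0945 without that of day 2, and 0.0322 and 0.0729 without the SNHG26 libraries of day 2 and day 3. Higher in both SNHG26 libraries than in both control libraries were 5 histone genes (8.62%, against 16.1% of all), and lower were 6 (10.3%, against 13.2% of all). Counted by direction alone, 18 were lower on both days (31.0%, against 21.8% of all) and 10 higher on both (17.2%, against 24.8%). In bulk RNA, fewer cells in S phase and less histone mRNA per cell cannot be told apart, and p-values measure the spread between libraries that also differ in day.

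Summed by class, guide differences went in unlike directions, and those of H1 and H2A rested on 1 gene each. The summed H1 level was 2990 ± 493 TPM (SD, n = 2) with the SNHG26 guides and 3547 ± 674 with the control guides, a log2 ratio of -0.25 (-0.22 on day 2 and -0.27 on day 3). Without H1-3 it was -0.01. H1-3 itself was lower in both SNHG26 libraries (log2 change -0.66, SE 0.25, limma adjusted p 0.935). Of the 6 H1 genes 5 were lower and 1, H1-2, higher (median -0.46), with 4 lower on both days (21.8% of all genes were). The lower genes include H1-6 (0, 0, 0 and 1 reads) and H1-1 (1, 2, 2 and 3 reads). The H2A sum gave a log2 ratio of -0.18, which became 0.12 without H2AC17. H2AC17 was lower in both SNHG26 libraries (-0.53, SE 0.12, unadjusted p 0.0109, limma adjusted p 0.755). The H4 sum was 20713 ± 1629 TPM against 18282 ± 2576 TPM, a log2 ratio of 0.18, and 0.08 without H4C3. H4C3 alone differed by 0.19 (SE 0.12, limma adjusted p 0.935). H2B and H3 sums gave -0.12 each, and the sum over all 59 genes 0.03. Counted as shares of whole reads, the ratios were -0.0800 for H1, -0.0191 for H2A and 0.33 for H4. Those of H2B (0.0786) and H3 (0.0437) turned positive. Whole reads here were those of the 2853 genes with whole reads on their listed span (68560, 66117, 64607 and 76723). They did not rise and fall with the upper totals of all reads (1044055, 1220265, 947338 and 1135936). The size and sign of these ratios depend on that denominator. None of these sums was tested.

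**Figure D4:**
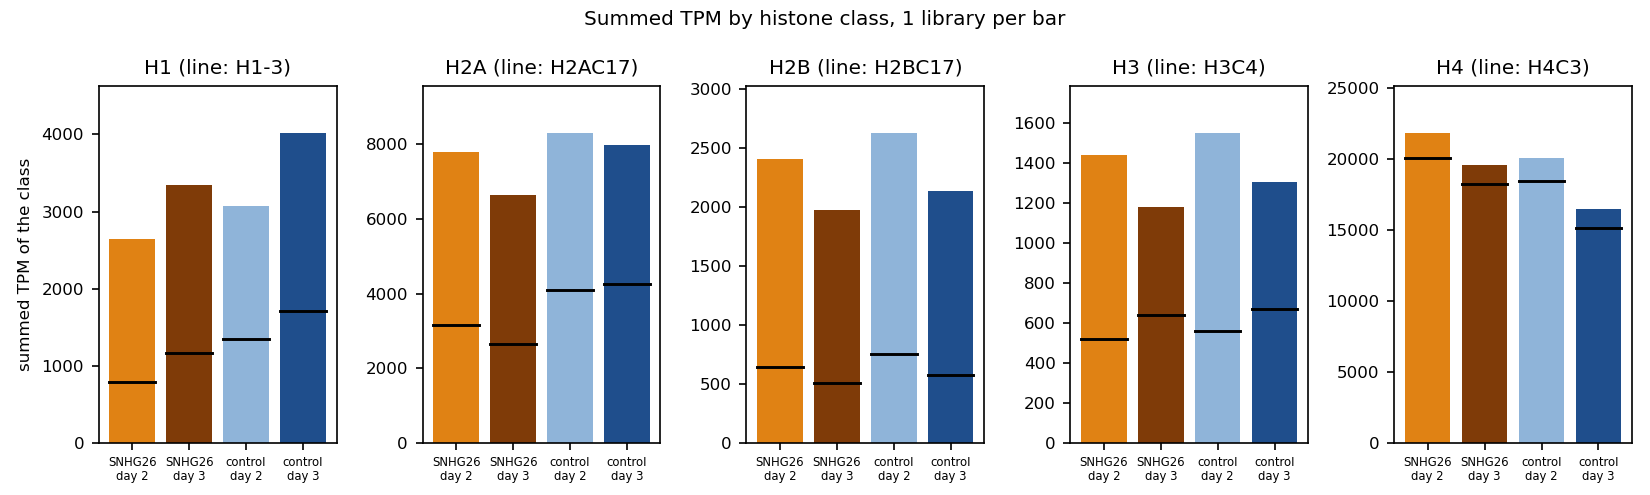
Summed TPM (y axis, from 0, scaled per panel) of the genes of each histone class in each library (x axis), 1 bar per library, with a black line at the level of the gene that is highest by mean. H1 is higher on day 3 than on day 2 in both arms, and in H4 the line of H4C3 lies close to the top of every bar.

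The histone genes with the largest guide differences alike on both days had few reads. On the higher side were H4C16 (1, 4, 0 and 0 reads; limma adjusted p 0.273), H3C10 (6, 3, 4 and 0 reads) and H2AC21 (7, 4, 3 and 1 reads). On the lower side were H4C4 (1, 0, 6 and 1 reads), H2BC3 (0, 1, 1 and 1 reads) and H2BC11 (1, 0, 1 and 1 reads). H4C16, which lies alone on chromosome 12 (14767999 to 14771131, minus strand), was listed at 17.7, 63.4, 0 and 0 TPM. On its span of 412 bases a count of 0 allows up to 58.5 and 48.9 TPM in the control libraries of day 2 and day 3 (3 reads per library), so no fold is given. In 32 of the 58 genes every library had fewer than 10 reads, and H4C16 is one of them.

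For 20 histone genes every library had at least 10 reads. Their guide changes ran from -0.66 (H1-3) to 0.31 (H1-2 and H4C11), with a median of -0.04, and 0 of 20 passed. Of them 8 were lower on both days and 4 higher on both, the rest changing sides. Over all genes tested the shares were 21.8% lower and 24.8% higher on both days. The intervals that counting error alone gives (exact Poisson, 95%) were 183 to 241 and 170 to 227 reads for H2AC17 with the SNHG26 guides and 218 to 281 and 276 to 345 with the control guides. PCR reads without molecular identifiers are not independent molecules, so such intervals cover counting error only.

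**Figure D5:**
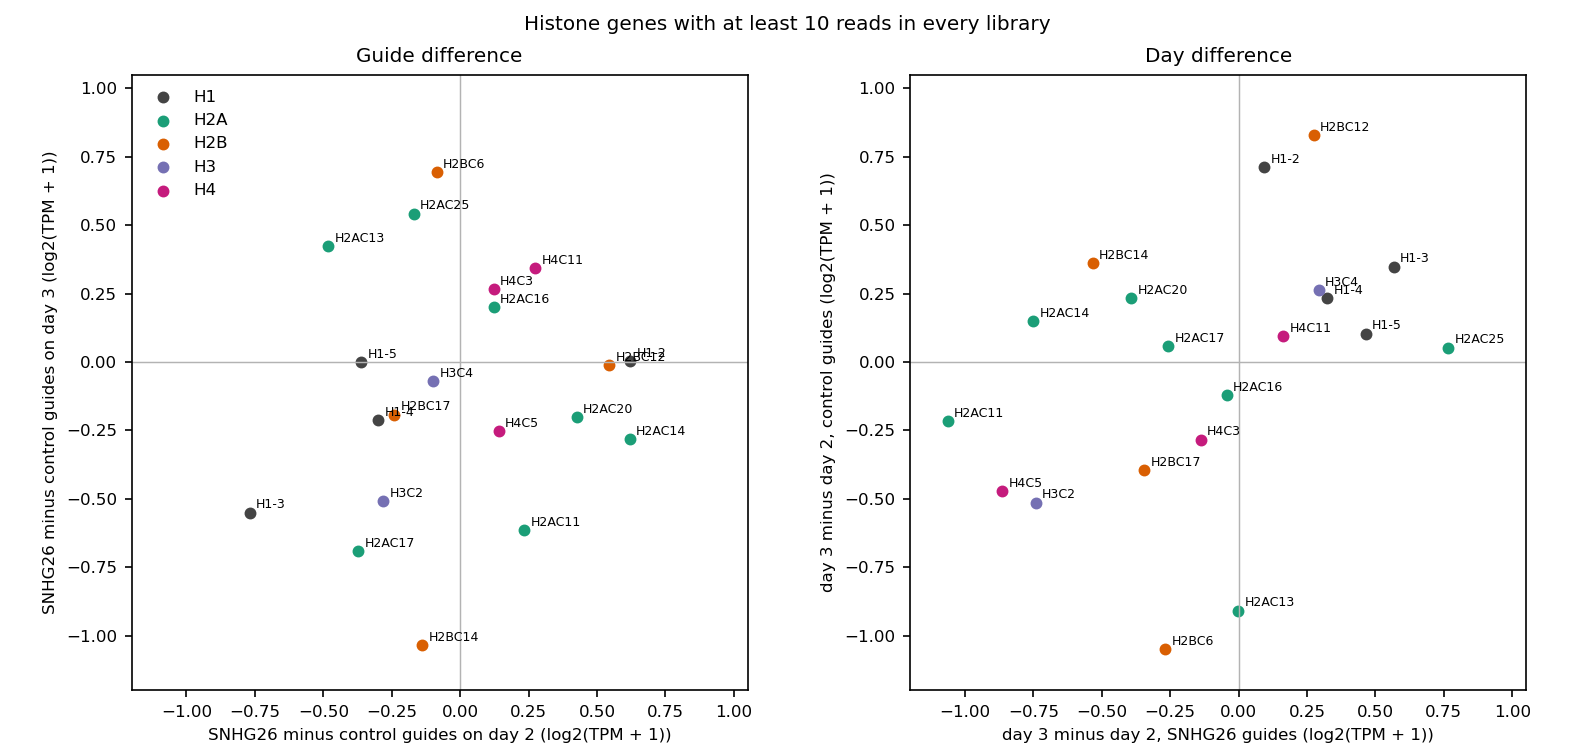
Differences on log2(TPM + 1) of the 20 histone genes with at least 10 reads in every library, coloured by class, 1 point per gene. Left: SNHG26 minus control guides on day 2 (x axis) and day 3 (y axis), with H1-3 and H2AC17 negative on both. Right: day 3 minus day 2 with the SNHG26 guides (x axis) and the control guides (y axis), with H1-2, H1-3, H1-4 and H1-5 positive in both arms.

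The H1 sum was higher and the sums of the core classes were lower on day 3, with no gene past the test. The H1 sum was higher on day 3 in both arms (log2 ratio 0.37, and 0.34 and 0.39 in the SNHG26 and control arms). All 6 H1 genes had a positive change (4193 of all 8274 genes did), with a median of 0.43. In each arm separately 5 of them did (24.3% of all genes). Of these genes, H1-6 had 0, 0, 0 and 1 reads and H1-1 had 1, 2, 2 and 3 reads. H1-3 had 0.46 (SE 0.35), H1-2 0.40 (SE 0.24), H1-4 0.28 (SE 0.17) and H1-5 0.28 (SE 0.18), each with a limma adjusted p of 0.76. The sums of H2A (-0.14), H2B (-0.29), H3 (-0.27) and H4 (-0.22) were lower on day 3, each in both arms. Single genes were less uniform. On day 3, 10 of 14 H2A, 10 of 17 H2B, 6 of 10 H3 and 5 of 11 H4 genes were lower (4081 of all 8274 genes were). The medians were -0.20, -0.37, -0.38 and 0.13, so in H4 the median and the sum differed in sign. That median rests on few reads, since 8 of the 11 H4 genes had fewer than 10 in every library. Of these, H4C1, H4C2, H4C6, H4C12 and H4C16 were higher, with at most 4 reads in a library. H4C4, H4C8 and H4C9 were lower, with at most 7. H3C4 did not follow its class, at 0.28 (SE 0.12), and without it the H3 ratio was -0.70. The H4 ratio was -0.38 without H4C3. As shares of whole reads, which depend on the denominator given above, it was -0.0934, that of H3 -0.16 and that of H2A -0.0285. Without the SNHG26 library of day 3 the H2A ratio was -0.0116.

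Over single genes, 0 of 58 histone genes passed between the days, against 3 of 8274 genes (0.0363%). At an unadjusted p under 0.05 there were 7 (12.1%, against 6.61% of all). On day 3, 20 histone genes lay below both day 2 libraries (34.5%, against 18.4% of all) and 8 lay above them (13.8%, against 17.1% of all). By direction alone, 22 were lower on day 3 in both arms (37.9%, against 24.8% of all) and 12 higher (20.7%, against 24.3%). The 20 were 4 H2A, 7 H2B, 5 H3 and 4 H4 genes and no H1 gene. Some of them had few reads, such as H4C4 (1, 0, 6 and 1 reads) and H2BC11 (1, 0, 1 and 1 reads). On 500 bases each read was worth 14.6 and 16.1 TPM on day 2 but 13.1 and 13.4 TPM on day 3. An equal count was thus listed lower on day 3, as for H2BC11 with the control guides. Among the 20 genes with at least 10 reads in every library the counts were 7 below and 6 above. Of these, H4C5 had the smallest p (-0.67, SE 0.14, limma adjusted p 0.449), with 1097 and 994 TPM on day 2 and 602 and 717 TPM on day 3.

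Of the genes with the largest day differences alike in both arms, those on the lower side had few reads, namely H3C12 (6, 0, 1 and 0 reads), H2BC26 (2, 0, 3 and 1 reads) and H3C10. On the higher side were H2BC9 (13, 24, 6 and 17 reads), H4C12 (1, 2, 1 and 1 reads) and H2BC12 (19, 16, 18 and 12 reads). H2BC12 had 112, 136, 76.7 and 137 TPM, higher on day 3 in both arms, although its reads were fewer. Its reads on the span of 495 bases went from 7 to 10 and from 4 to 10, those on 9558 bases from 12 to 6 and from 14 to 2, and a read on the shorter span adds more TPM. Counted as reads, its change was -0.61, against 0.55 as TPM.

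H2BC18 was called in both comparisons in 1 added setting, given below, and in no other. It was lower with the SNHG26 guides on each day (17 against 28 reads on day 2 and 7 against 13 on day 3) and lower on day 3 in each arm. The changes were -0.89 (SE 0.70) between guides and -1.39 (SE 0.47) between days, with limma adjusted p of 0.935 and 0.734. Leaving out 1 library moved the guide change over -1.61 (without the SNHG26 library of day 2) to -0.18 (without that of day 3), and it was -0.21 and -1.57 without the control libraries of day 2 and day 3. The day change moved over -1.86 to -0.93. With day or arm as a block and genes of at least 50 TPM, a setting chosen with earlier results known, the adjusted p was 0.0321 and 0.000199 over 1145 genes, of which 14 (1.22%) and 35 (3.06%) passed. That fit has 1 residual degree of freedom. In it 1 of 33 histone genes passed between guides and 3 of 33 between days, namely H2BC18, H2BC9 (0.98, limma adjusted p 0.00628) and H4C5 (-0.67, limma adjusted p 0.0441). The Poisson intervals of the H2BC18 reads were 9.90 to 27.2 and 2.81 to 14.4 with the SNHG26 guides and 18.6 to 40.5 and 6.92 to 22.2 with the control guides, and they overlap on each day.

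Whether the guide difference itself differed between the days was tested as the crossed contrast. It sets the mean of the SNHG26 library of day 3 and the control library of day 2 against the mean of the other libraries. In it 0 of 58 histone genes passed (8 of 8274 genes, 0.0967%). With 1 library per arm and day, the spread in this fit came from the guide and day differences, which it leaves out. Its p-values therefore do not measure a spread between replicates. At an unadjusted p under 0.05 there were 6 histone genes (10.3%, against 3.52% of all). The smallest adjusted p was that of H3C1 (limma adjusted p 0.108), which had 0, 1, 1 and 0 reads.

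Genes that make, process and use histone mRNA were listed alongside. Of 18 listed genes for histone mRNA processing and decay 12 were tested and 0 passed in either comparison. SLBP, the stem-loop binding protein, had 4.11, 1.67, 2.05 and 1.03 TPM (guide change 0.57, SE 0.56, and day change -0.76, SE 0.47). NPAT, the coactivator of histone transcription, was listed at 0, 0.0998, 0 and 0 TPM, below the filter. The highest were SRRT (292, 233, 265 and 184 TPM), which links the cap-binding complex to RNA processing, LSM10 (104, 110, 101 and 76.6 TPM), a protein of the U7 snRNP, and NCBP2 (60.3, 66.7, 73.6 and 45.4 TPM), a cap-binding subunit. Between the days 11 of the 12 were lower on day 3, with a median of -0.17 (4081 of all 8274 genes were lower). Of the 12, 3 were lower in both arms, near the share over all genes (24.8%). Of 17 tested S-phase genes 0 passed, with medians of 0.01 between guides and -0.20 between days. PCNA, the sliding clamp of replication, had 135, 152, 151 and 117 TPM, and the helicase subunits MCM4 and MCM7 had 74.5, 54.9, 92.3 and 126 TPM and 61.4, 69.2, 72.1 and 80.7 TPM.

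The histone variants made outside S phase, whose mRNAs carry poly(A) tails, summed to 5656, 5473, 5136 and 4198 TPM, below the H2A class in every library. Of 9 tested 0 passed. H2AZ1 led with 4565, 4246, 4122 and 3156 TPM, above H2AC17 in 3 libraries and below it in the control library of day 3, followed by H3-3B (659, 583, 583 and 594 TPM) and H2AJ (235, 400, 233 and 238 TPM). These genes have longer spans, so that 1 read adds fewer TPM to them. Among 14 tested chaperones, which hand histones to chromatin, 0 passed. RBBP7 (74.1, 62.3, 55.1 and 73.5 TPM), DAXX (65.4, 66.6, 64.9 and 60.7 TPM) and NASP (50.1, 49.1, 51.01 and 81.8 TPM) were highest, with medians over the list of 0.03 between guides and 0.24 between days.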

How the data were processed

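The authors deposited TPM per gene, in a single table of 16174 genes and 4 libraries. Per the submitters' processing notes, minimap2 2.24-r1122 and GRCh38 were used. The counting tool, the annotation release and any filter are not given in the sources used here. TPM multiplied by span, over the value of 1 read, gave whole reads (within 0.0001 read) on the listed span for 34 of 58 histone genes. The others were solved as whole reads on several spans (within 3e-06), taking the fewest reads, with spans from the table, RefSeq, GENCODE release 29 or, in 6 genes, 1 span of 350 to 700 bases found from the values.

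Libraries were grouped by the labels' guides and days. The 8274 genes whose mean level reached 1 TPM were compared on log2(TPM + 1), a scale that shrinks changes at levels near 1 TPM. On a short histone span 1 read is worth far more than that (13.1 to 16.1 TPM on 500 bases). There, 0 against 1 read gives a large change. H3C1, with 0, 1, 1 and 0 reads, had guide changes of -4.07 on day 2 and 3.79 on day 3. Its crossed change of 3.93 is a difference between means of library pairs. It is smaller than the difference between those guide changes. The test was that of limma 3.58.1 (R 4.3.3), with a mean-variance trend and Benjamini-Hochberg adjustment at 0.05. The test was tried on simulated data. The labels give same-day libraries the same day of doxycycline. Their deviations from the arm means had a correlation of 0.046, and the replicate block was an alternative. Sums by class have no test.

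Histone genes and lists were chosen with earlier results of these data known. The genes named were the 4 highest of each class, the 3 each way with the largest change alike on both days or in both arms, any past the threshold, H2BC18, SLBP, NPAT, SNHG26 and the 3 highest of each related list. Others, such as the genes under 0.05 before adjustment, were chosen after their values were seen. Alternatives were pseudocounts, filters, scalings, no trend, the block, whole reads with limma's voom, and leaving out each library.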

Additional observations from a re-analysis of the deposited data

How the results depend on the processing

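With 2 libraries per arm, p-values measure only the spread between libraries that also differ in day, and 32 of 58 histone genes had fewer than 10 reads in every library, so small differences in them were not detectable at this depth. Except under the setting named next, no histone gene passed under any alternative run, the replicate block included (0 of 58 between guides and 0 between days). With genes kept from 50 TPM and the replicate block, added after seeing the data, 1 passed between guides (14 of all genes in place of 0) and 3 between days, namely H2BC18 (-0.89 and -1.39) and H2BC9 and H4C5 between days only (0.98 for H2BC9). The 3 genes of any kind called between days became 0 under either other pseudocount (0.1 and 5), without the filter, without the trend, by quantile normalization, by the replicate block, or without any 1 library. They became 6 with voom on whole reads and 35 with genes kept from 50 TPM and the replicate block. The 8 of the crossed contrast became 14 with a pseudocount of 0.1, 13 at 5 TPM, and 0 with a pseudocount of 5, no filter, no trend or the replicate block. The guide change of H3C10 lay between -0.34 (without the control library of day 3) and 5.50, that of H4C3 became 0 by quantile normalization, where its rank sets its value, and the day change of H2BC12 became -0.61 by voom on whole reads.

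Summed levels depended more on the choices. As guide log2 ratios, median ratio scaling gave H1 -0.31, H2B -0.17, H3 -0.17 and all classes -0.0212. Without the highest gene of each class they were H1 -0.00509, H2A 0.12, H2B -0.0848, H3 -0.16, H4 0.0780 and all -0.15. As shares of whole reads, with the same denominator as above, they were H1 -0.0800, H2A -0.0191, H2B 0.0786, H3 0.0437, H4 0.33 and all 0.15. As day ratios, dropping the highest gene gave H1 0.32, H2B -0.27, H3 -0.70, H4 -0.38 and all -0.0932. Shares of whole reads gave H1 0.47, H2B -0.24, H3 -0.16, H4 -0.0934 and all -0.00435. Leaving out 1 library gave guide ranges of -0.43 to -0.0382 (H1), -0.30 to -0.06 (H2A), -0.27 to 0.0384 (H2B), -0.28 to 0.0115 (H3), 0.0431 to 0.33 (H4) and -0.0514 to 0.11 (all). The day ranges were 0.23 to 0.49 (H1), -0.28 to -0.0116 (H2A), -0.36 to -0.23 (H2B), -0.34 to -0.20 (H3), -0.35 to -0.10 (H4) and -0.17 to -0.14 (all). The causes were not tested.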
